A study of Mus musculus with 7 samples.

Results

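MHC class II genes were followed in gentamicin-damaged mouse utricles, and of them the regulator Ciita was higher and the invariant chain Cd74 lower in the libraries with Fos overexpression. The genes were Ciita, Cd74, H2-Aa, H2-Ab1, H2-Eb1, H2-DMa and H2-DMb1, 7 of the 32285 genes in the files and 7 of the 17155 that passed the filter on low counts. They were chosen by name, with the opposite directions of Ciita and Cd74 in this same comparison already known, so their fold changes are a description with no p, and nothing is read from how many of them pass a limit. The study asked what Fos, a subunit of the AP-1 transcription factor, does in the utricle, a balance organ of the inner ear, after its hair cells are damaged by the antibiotic gentamicin. Bulk RNA was sequenced from utricle explants of wild-type (WT) mice at postnatal day 2 (P2), with 12 utricles pooled in each library. The study's methods name a C57BL strain as the source of the explants. All explants, those of the control group included, were cultured and damaged with 2 mM gentamicin for 24 h, and were collected on day 5 after injury. In 4 libraries, called Gent+Fos OE, the explants also received Fos for 48 h from the adeno-associated virus AAV-PHP.eB under a CMV promoter, which is not specific to one cell type. The other 3 libraries, called Gent, are labelled with gentamicin only, and the labels name no virus for them, while the study's text speaks of a control AAV group in this comparison.

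MHC class II molecules present peptides from endosomes to CD4 T cells and are made mainly by macrophages, dendritic cells and B cells. Ciita is the coactivator that switches on their genes. It does not bind DNA itself but docks on factors (RFX, CREB and NF-Y) that sit on a row of promoter elements known as the X and Y boxes. Cd74, the invariant chain, fills the groove of new class II molecules until H2-DM, a pair of H2-DMa and H2-DMb1 or H2-DMb2 chains, exchanges its last fragment for a peptide. H2-Aa and H2-Ab1 encode the 2 chains of H2-A, and H2-Eb1 encodes the beta chain of H2-E. Ciita has several promoters used by different cell types, which counts per gene cannot separate.

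The promoter elements are shown first, because they are what the class II genes share. Of the 7 genes, 4 matched the RefSeq promoter table (H2-Aa, H2-Eb1, H2-DMa and H2-DMb1), and no promoter is shown for Ciita, Cd74 or H2-Ab1. Each line gives 115 bases, 5′ to 3′, that end 11 bases before the transcript start in RefSeq on GRCm38. That start can lie inside the gene as the files bound it, as for H2-DMb1 and H2-DMb2. H2-DMb2 is set beside them as the close copy of H2-DMb1. Capitals mark an X box core (the stretch that RFX binds), a Y box (GATTGG) or a cAMP response element core (CRE core, TGACG), each searched on both strands, so that a Y box on the other strand reads CCAATC.
H2-Aa: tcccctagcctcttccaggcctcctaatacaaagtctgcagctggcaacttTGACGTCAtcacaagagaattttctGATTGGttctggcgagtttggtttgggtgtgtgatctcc
H2-Eb1: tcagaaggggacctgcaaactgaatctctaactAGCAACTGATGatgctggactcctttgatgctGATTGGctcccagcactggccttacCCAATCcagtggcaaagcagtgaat
H2-DMb1: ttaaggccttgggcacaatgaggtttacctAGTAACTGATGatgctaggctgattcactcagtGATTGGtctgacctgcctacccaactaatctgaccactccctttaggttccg
H2-DMb2: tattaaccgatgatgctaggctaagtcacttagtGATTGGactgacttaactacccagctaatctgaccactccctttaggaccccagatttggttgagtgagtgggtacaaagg

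These windows lie at chr17:34287834-34287948 on the minus strand for H2-Aa and, on the plus strand, at chr17:34305742-34305856 for H2-Eb1, chr17:34153066-34153180 for H2-DMb1 and chr17:34145124-34145238 for H2-DMb2. H2-Eb1 and H2-DMb1 held an X box core and a Y box at a like spacing, with the X core at 92 to 82 and 95 to 85 bases before the start and the Y box at 60 to 55 and 62 to 57. Both together were found in 49 of 32851 promoters, or 0.149%. All motifs were searched in the whole RefSeq entry, from 250 bases before to 50 after the start, which is longer than the windows shown. Outside the members, H2-Eb2 held both at a like spacing too (133 to 123 and 101 to 96), and H2-Oa held them farther apart (141 to 131 and 44 to 39). H2-DMa held no X core and had a Y box at 199 to 194 bases before its second listed start. H2-Aa held a Y box and a palindrome of CRE cores that overlap each other, but no match to the X core as spelled here. A Y box alone was held by 16.1% of all promoters, an X core by 0.968% and a CRE core by 20.8%. The AP-1 motif TGANTCA was held by 7.81% of all promoters, and among these genes by H2-DMb1 at 75 to 69 bases and by H2-DMa, from its second listed start, at 86 to 80 bases before the start. A match describes letters in the window and says nothing of binding in these cells.

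The libraries held 27879889 to 34335214 counts and 20254 to 21623 genes with a count. Fos itself was higher in every library labelled with it, at 151.14, 150.58, 166.98 and 148.83 CPM (counts scaled to library size, normalized by TMM) in Gent+Fos OE replicates 1 to 4 against 39.50, 40.58 and 34.61 in Gent replicates 1 to 3. Its log2 fold change was 2.01 (SE 0.13), with an adjusted p of 0.000142 by edgeR's quasi-likelihood test. The exact two-sided permutation test of the mean log2 CPM gave 0.0571, a doubled one-sided p and the smallest that this form can give with 4 and 3 libraries, so in this form it cannot pass 0.05. Taken on the absolute difference, a form chosen after the value was seen, the exact permutation p was 0.0286, again the smallest possible. Gent replicate 2 stood apart, with a rank correlation of -0.50 between its deviation from the mean of all libraries and gene length. Gent replicates 1 and 3 were at 0.15 and -0.22, and the Gent+Fos OE libraries ran from 0.12 to 0.33, so this trend differed between the groups too.

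Ciita was the member that was higher with Fos. It was counted 70, 108, 88 and 89 times in Gent+Fos OE replicates 1 to 4 and 22, 20 and 13 times in Gent replicates 1 to 3. In CPM these were 2.28, 3.31, 2.79 and 3.17 against 0.75, 0.64 and 0.38. The groups did not overlap, and the lowest Gent+Fos OE library lay above the highest Gent library. The means were 2.89 ± 0.461 (SD, n = 4) and 0.59 ± 0.194 (SD, n = 3), a 4.89-fold ratio, and the log2 fold change was 2.29 (SE 0.34). Ciita (ENSMUSG00000022504) lies at chr16:10480059-10528418 on mm10, on the plus strand, and 329 of its 9535 exonic bases (3.45%) overlap Dexi on the other strand. The headers show no strand setting, and reads that hit both genes were not counted to either.

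The genes around Ciita served as a local comparison. On one side, Nubp1 had a log2 fold change of -0.15 (adjusted p = 0.561, edgeR) and Tvp23a 0.32 (adjusted p = 0.403). On the other side, Dexi had -0.09 (adjusted p = 0.805) and Clec16a 0.44 (adjusted p = 0.111). None of the 4 was called by edgeR or DESeq2, and Clec16a alone among them had groups that did not overlap, at 40 ± 2.97 against 29.5 ± 3.74 CPM.

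**Figure D1:**
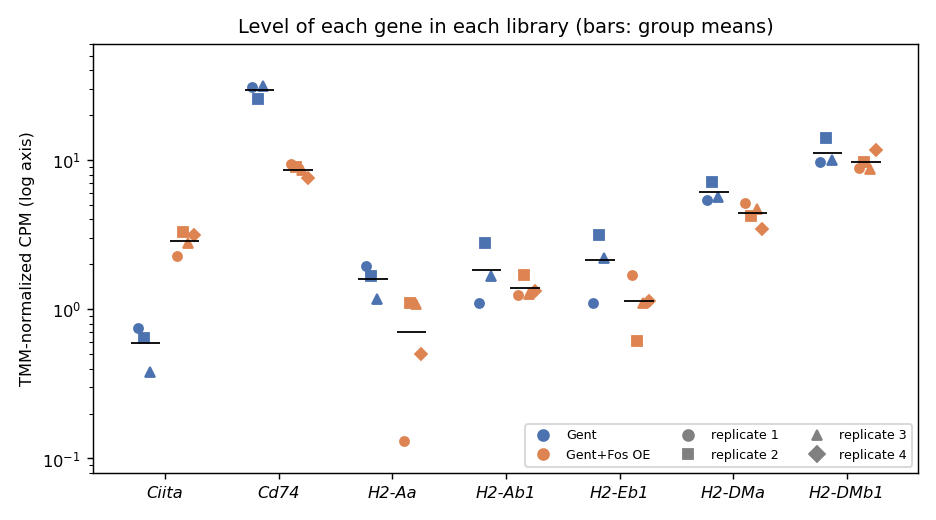
TMM-normalized CPM (log axis) of the 7 genes in each of the 7 libraries, with colours for the groups, marker shapes for the replicates and bars for the group means. Ciita is higher in the Gent+Fos OE libraries and Cd74 lower without overlap, while H2-Ab1, H2-Eb1 and H2-DMb1 overlap.

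Cd74 went the other way. It was counted 291, 292, 271 and 212 times in the Gent+Fos OE libraries and 905, 795 and 1084 times in the Gent libraries, or 9.48, 8.94, 8.58 and 7.56 against 30.97, 25.48 and 31.32 CPM. All 4 Gent+Fos OE libraries lay below all 3 Gent libraries, and the values within each group were close together. The means were 8.64 ± 0.81 (SD, n = 4) and 29.3 ± 3.28 (SD, n = 3), 3.39-fold higher in Gent, and the log2 fold change was -1.76 (SE 0.14). Cd74 (ENSMUSG00000024610) lies at chr18:60803848-60812652 on the plus strand, with no exonic overlap with another gene. Its neighbours, named after their values were seen, were Ndst1 at 0.55 (adjusted p = 0.143, edgeR), Rps14 at -0.53 (adjusted p = 0.154), Tcof1 at -0.33 (adjusted p = 0.147) and Arsi at -0.97 (adjusted p = 0.0597) on the log2 scale. Tcof1 and Arsi were lower in all Gent+Fos OE libraries than in all Gent libraries, and DESeq2 called Arsi (adjusted p = 0.00495).

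The Cd74 reads per Ciita read were 4.16, 2.7, 3.08 and 2.38 in Gent+Fos OE and 41.1, 39.8 and 83.4 in Gent. The ratio does not depend on the depth of a library, but it joins the values for which both genes were chosen, so it is only a description.

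The chains of the class II molecules themselves were counted few times in either group. H2-Aa, the alpha chain of H2-A (ENSMUSG00000036594, chr17:34282744-34287823, minus strand), had 4, 36, 34 and 14 reads in Gent+Fos OE and 57, 52 and 41 in Gent. The groups did not overlap, with means of 0.702 ± 0.472 (SD, n = 4) and 1.6 ± 0.387 CPM (SD, n = 3), and replicate 1 of Gent+Fos OE was the lowest. Its log2 fold change was -1.18 (SE 0.56).

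H2-Ab1, the beta chain of H2-A (ENSMUSG00000073421, chr17:34257689-34269419), was at 1.24, 1.71, 1.27 and 1.32 CPM in Gent+Fos OE and 1.10, 2.76 and 1.68 in Gent. The groups overlapped, and the high Gent value came from replicate 2. The log2 fold change of -0.41 (SE 0.36) was -0.01 without that library and -0.67 without Gent replicate 1.

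H2-Eb1, the beta chain of H2-E (ENSMUSG00000060586, chr17:34305867-34316674), was at 1.69, 0.61, 1.11 and 1.14 CPM in Gent+Fos OE and 1.10, 3.17 and 2.2 in Gent. These overlapped too, since Gent replicate 1 lay below 3 of the Gent+Fos OE libraries. The log2 fold change was -0.92 (SE 0.43), and -0.54 without Gent replicate 2.

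Together the 3 chain genes summed to 3.06, 3.43, 3.45 and 2.96 CPM in Gent+Fos OE, against 4.14, 7.6 and 5.06 in the Gent libraries, from 83 to 112 and 121 to 237 reads. Their sum was thus lower in all 4 Gent+Fos OE libraries, in which Ciita was higher.

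The chains of H2-DM, the peptide editor, had log2 fold changes smaller in size than those of H2-Aa and H2-Eb1. That of H2-DMa was not smaller than the -0.41 of H2-Ab1. H2-DMa (ENSMUSG00000037649, chr17:34119541-34139101) was at 5.18, 4.19, 4.72 and 3.46 CPM in Gent+Fos OE and 5.44, 7.15 and 5.69 in Gent. The groups did not overlap, but the nearest libraries were 5.18 and 5.44, and the log2 fold change was -0.47 (SE 0.21). Of its 3448 exonic bases, 360 (10.4%) overlap Brd2.

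H2-DMb1 (ENSMUSG00000079547, chr17:34153072-34160230) was at 8.83, 9.71, 8.74 and 11.66 CPM in Gent+Fos OE and 9.69, 14.01 and 9.97 in Gent. These values overlapped, and the log2 fold change of -0.21 (SE 0.19) was -0.02 without Gent replicate 2 and -0.03 with a correction for gene length. Its near copy H2-DMb2 was counted 0, 2, 2 and 4 times in Gent+Fos OE and 6, 12 and 1 times in Gent. Reads that fit both copies were not counted where they mapped to several places, so the split between them is uncertain.

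The partners outside the list were almost silent. H2-Oa, a chain of the H2-DM inhibitor H2-O, had 2 and 8 reads in Gent replicates 2 and 3 and none in the others. H2-Ob, its other chain, had 4 reads in Gent+Fos OE replicate 4 only, and H2-Eb2 had none in any library. H2-Ea was not found under that name in the files and was not analysed here. Whether H2-E molecules form in these explants was not tested. H2-Oa, H2-Ob and H2-Eb2 did not pass the filter on low counts.

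Counting the members against all genes, 2 of 7 (Ciita higher, Cd74 lower) passed an adjusted p under 0.01 with an absolute log2 fold change over 0.25, where 0.414% of all 17155 tested genes did, 0.134% higher and 0.28% lower. Ciita no longer passed with any 1 of the 7 libraries left out, and Cd74 still did. Since the list was drawn from this comparison, nothing is read from that count or from whether a member's call holds. Without overlap between the groups, 1 member was higher and 3 (Cd74, H2-Aa and H2-DMa) were lower, against 11.3% and 12.2% of all tested genes. The median log2 fold change of the 7 was -0.47, and that of all tested genes was -0.00.

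**Figure D2:**
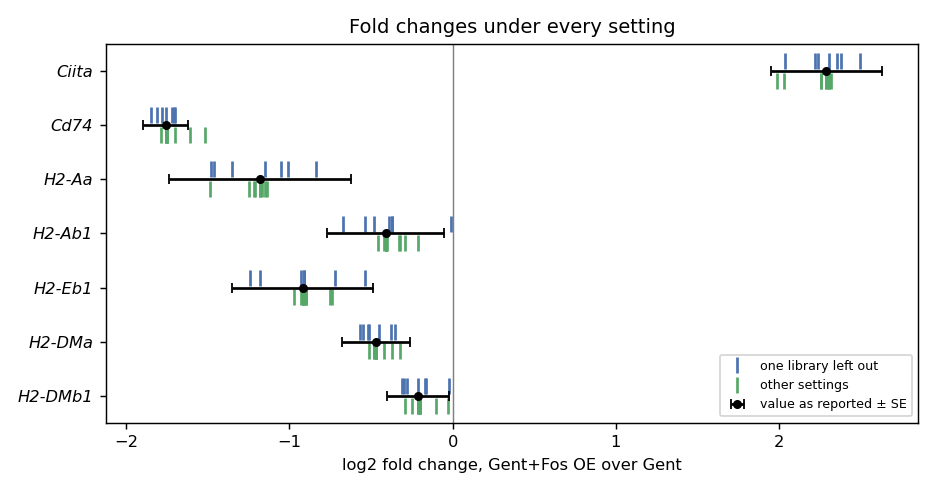
Log2 fold change of each of the 7 genes (Gent+Fos OE over Gent) as reported, with its standard error, beside the values with one library left out and under the other settings. Ciita ran from 1.99 to 2.50 and Cd74 from -1.85 to -1.52, while H2-Ab1 and H2-DMb1 came close to 0 without Gent replicate 2.

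Per kilobase of exon, the scale on which genes can be compared, the order in Gent was Cd74, H2-DMb1, H2-DMa, H2-Eb1, H2-Ab1, H2-Aa and Ciita. Cd74 was at 17.4 ± 1.95 CPM per kilobase in Gent (SD, n = 3), above H2-DMb1 at 6.67, and Ciita was lowest at 0.0619 ± 0.0203. In Gent+Fos OE, Cd74 at 5.15 ± 0.482 (SD, n = 4) and H2-DMb1 at 5.79 lay close together, with mean ± SD ranges that met, and Ciita at 0.303 ± 0.0483 and H2-Aa at 0.185 ± 0.124 were not separated beyond their spread. In Gent, H2-DMa at 1.77 and H2-Eb1 at 1.11 overlapped. There, H2-Eb1 and H2-Ab1 at 0.717 were not separated beyond their spread, and neither were H2-Ab1 and H2-Aa at 0.421, whereas H2-Eb1 and H2-Aa did not overlap.

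**Figure D3:**
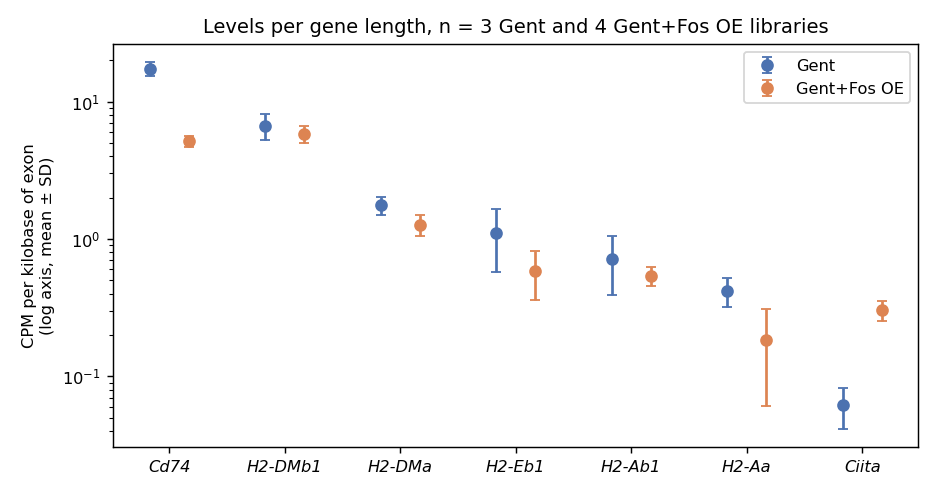
Mean CPM per kilobase of exon (log axis, error bars SD) of the 7 genes in 3 Gent and 4 Gent+Fos OE libraries, ordered by the Gent mean. Cd74 lay near H2-DMb1 in Gent+Fos OE, and Ciita and H2-Aa overlapped.

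Cells that make class II molecules were then looked at by their markers. All 15 macrophage markers were tested, with 13 below and 2 above 0 in Gent+Fos OE over Gent and a median of -0.65 on the log2 scale. The Fc receptor gene Fcgr1 alone was called, at -1.25 (adjusted p = 0.00771, edgeR), while DESeq2 called 6 of the 15 lower. Over all genes, edgeR called 0.28% lower, and DESeq2 called 327 of the 18927 genes with an adjusted p, or 1.73%. Summed, the markers were at 3295 to 5074 CPM with Fos, against 5364 to 7374 in Gent, with lysozyme (Lyz2) carrying most of the sum. The 5 general leukocyte markers all had values below 0, with none called by edgeR and 2 by DESeq2, and sums of 284 to 491 against 512 to 629.6 CPM. In pooled tissue, fewer cells of a type and less RNA per cell cannot be told apart.

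Cd74 is set beside these markers as a description, since it was chosen for its low value in this comparison. Relative to the mean of the Gent libraries, it was at 0.324, 0.306, 0.293 and 0.258 in Gent+Fos OE, where the median macrophage marker was at 0.672, 0.52, 0.568 and 0.785. Relative to Csf1r, the receptor that macrophages need to survive, Cd74 was at 0.0654, 0.0854, 0.0631 and 0.0504 in Gent+Fos OE and 0.12, 0.104 and 0.179 in Gent. Single markers came near it, with the Fcgr1 mean with Fos at 0.42 of its Gent mean. The part of the macrophage markers in the lower Cd74 was not tested. Ciita was higher in the same libraries in which these markers were lower.

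Markers of the other class II-making cells, dendritic and B cells, and of T and NK cells were few or mixed. Of 10 dendritic cell markers, 4 were tested, all were higher with none called, and they summed to 24.3 to 37.4 CPM with Fos, against 18.9 to 27 in the Gent libraries, mostly from Itgax, which macrophages also express. Cd209a was at 0 in every library. The B cell list summed to 2.3 to 6.95 and 4.8 to 9.71 CPM. Of its 7 markers 3 were tested, and edgeR called none. Cr2 was at 0.79 (adjusted p = 0.441) and Ighm at -0.35 (adjusted p = 0.75) on the log2 scale, both with overlap. Cd79b was at 1.74 ± 0.591 with Fos (SD, n = 4) and 4.92 ± 1.57 CPM without (SD, n = 3), with no overlap. Its log2 fold change was -1.50 (adjusted p = 0.0431, edgeR), and DESeq2 called it (adjusted p = 0.000834). The sum of the T and NK cell list was 12.8 to 31 and 21 to 32.3 CPM, mostly Cd4, with Ncr1 at 0 throughout. Markers of melanocytes, supporting cells and other cells are set beside these. List medians on the log2 scale were -0.09 for hair cells, -0.35 for mesenchyme, 0.07 for endothelium, -0.20 for Schwann cells and -0.41 for stratified epithelium. All 6 melanocyte markers were below 0 with a median of -1.37 and 2 called by edgeR (Dct and Tyrp1) and 5 by DESeq2, and of 9 supporting cell markers 7 were above and 2 below 0, with a median of 0.24 and 1 called by edgeR (Otog, at 1.25, adjusted p = 0.00851) and 2 by DESeq2. The part of these cell types in the values above was not tested.

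**Figure D4:**
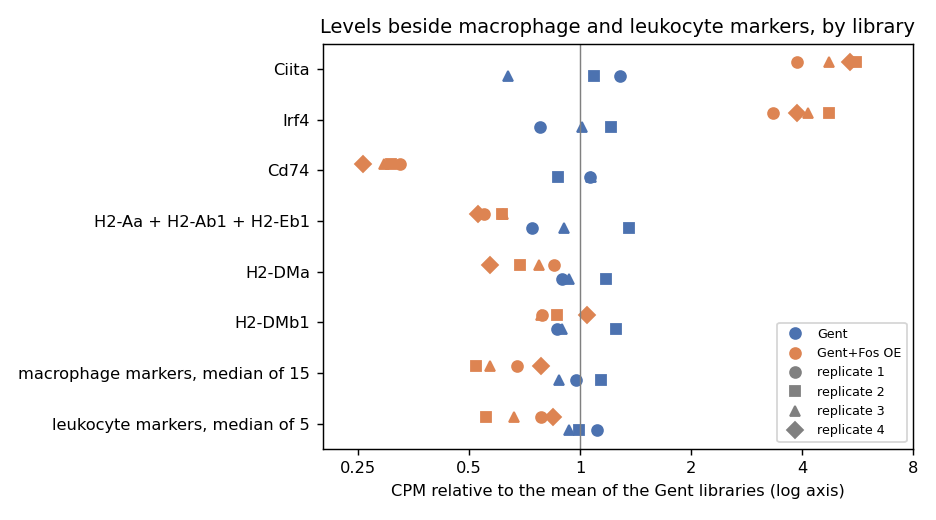
CPM relative to the mean of the 3 Gent libraries (log axis) for class II genes, Irf4 and the median macrophage and leukocyte marker, with 1 point per library. Ciita and Irf4 sit above 3 in all Gent+Fos OE libraries, Cd74 below 0.33, and the marker medians between 0.52 and 0.842.

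The pathway around these genes was read from a wider list of 67 genes, of which 66 were in the files and 57 were tested. In all, 20 were higher and 37 lower, where 8563 of all tested genes were higher and 8592 lower. By edgeR 2 were called, both higher, where 0.134% of all tested genes were called higher and 0.28% lower. No gene of the list was called lower by edgeR. Before adjustment, at a p below 0.05 and past the fold limit, 11.1% of all tested genes were higher and 13.4% lower, and of the 57 genes 5 were higher and 19 lower by that rule. For the lower direction, DESeq2 called 2 of the list, against 1.73% of all genes with an adjusted p, and limma-voom called none. The called genes were Irf4 and Vtcn1.

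Irf4, a transcription factor of lymphoid and myeloid cells, was at 7.52, 10.62, 9.31 and 8.70 CPM in Gent+Fos OE and 1.75, 2.72 and 2.28 in Gent. The lowest value with Fos exceeded the highest without it, and the log2 fold change was 2.0 (SE 0.22, adjusted p = 0.0025, edgeR). Irf4 was no longer called without Gent+Fos OE replicate 3 (adjusted p = 0.0168), Gent+Fos OE replicate 4 (0.011) or Gent replicate 3 (0.0148), by edgeR. In the same list of factors at Ciita, the myeloid factors Spi1 at -0.92 (adjusted p = 0.0862) and Irf8 at -0.58 (adjusted p = 0.102) had lower values with no overlap and were not called by either tool.

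Vtcn1, a ligand that restrains T cells, was at 7.10, 7.81, 7.54 and 4.35 against 1.30, 1.79 and 1.33 CPM. It too had no overlap, with a log2 fold change of 2.18 (SE 0.27, adjusted p = 0.0039, edgeR). Vtcn1 was no longer called without Gent+Fos OE replicate 1, 2 or 3 (adjusted p = 0.0207, 0.0174 and 0.0222, edgeR) or without Gent replicate 3 (0.0256). The other 5 tested genes of its list had values below 0 and none was called, among them the checkpoint ligand Cd274 at -0.77 (adjusted p = 0.0845) and Icosl at -0.49 (adjusted p = 0.0977), both with no overlap.

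Of the RFX, CREB and NF-Y factors that Ciita docks on and the acetyltransferases Crebbp, Ep300 and Kat2b that work with it, none was called by edgeR or DESeq2. Of these 11 genes, 8 had values above 0 and 3 below, and the median was 0.19 on the log2 scale. Rfx5, the DNA-binding RFX subunit, was at 0.44 (adjusted p = 0.264, edgeR), Rfxap at -0.23 (adjusted p = 0.348) and Rfxank at -0.20 (adjusted p = 0.53). Without Gent replicate 2, Rfx5 was at 0.16 and Rfxank turned to 0.04, Rfxank was at -0.33 without Gent replicate 1, and Rfxap was at -0.15 without Gent+Fos OE replicate 2. The acetyltransferases Crebbp and Ep300 were at 0.59 (adjusted p = 0.0834) and 0.46 (adjusted p = 0.21), and the NF-Y subunit Nfyc at -0.38 (adjusted p = 0.17). Without Gent replicate 2, Ep300 was at 0.24 and Nfyc at -0.19, and without Gent replicate 1 Ep300 was at 0.74. With a correction for gene length, Crebbp was at 0.21, Ep300 at 0.11 and Rfxap at -0.11.

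Interferon gamma induces Ciita through its receptor and Jak kinases. Ifng itself was at 0 in all libraries. Of the 10 genes tested none was called by edgeR and 1 was by DESeq2, and 5 were lower at p below 0.05 before adjustment. The feedback inhibitor Socs1 was at -0.87 (adjusted p = 0.0802), Irf1 at -0.49 (adjusted p = 0.0995) and the receptor chain Ifngr2 at -0.38 (adjusted p = 0.109).

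Of 11 tested genes that process peptides, 10 had a value below 0, none was called by edgeR, and DESeq2 called Ctss lower (adjusted p = 0.00461). The protease inhibitor Cst3 was at -0.62 (adjusted p = 0.118, edgeR), the protease Ctss, which trims the invariant chain, at -0.58 (adjusted p = 0.0627), and the thiol reductase Ifi30 at -0.55 (adjusted p = 0.102). The cytokines that bind Cd74, Mif and Ddt, were at -0.83 (adjusted p = 0.0841) and -0.66 (adjusted p = 0.121). Nlrc5, the relative of Ciita that serves MHC class I, was at -0.66 (adjusted p = 0.102). Without Gent replicate 2, Cst3 was at -0.33, Ifi30 at -0.32, Mif at -0.43 and Ddt at -0.35.

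**Figure D5:**
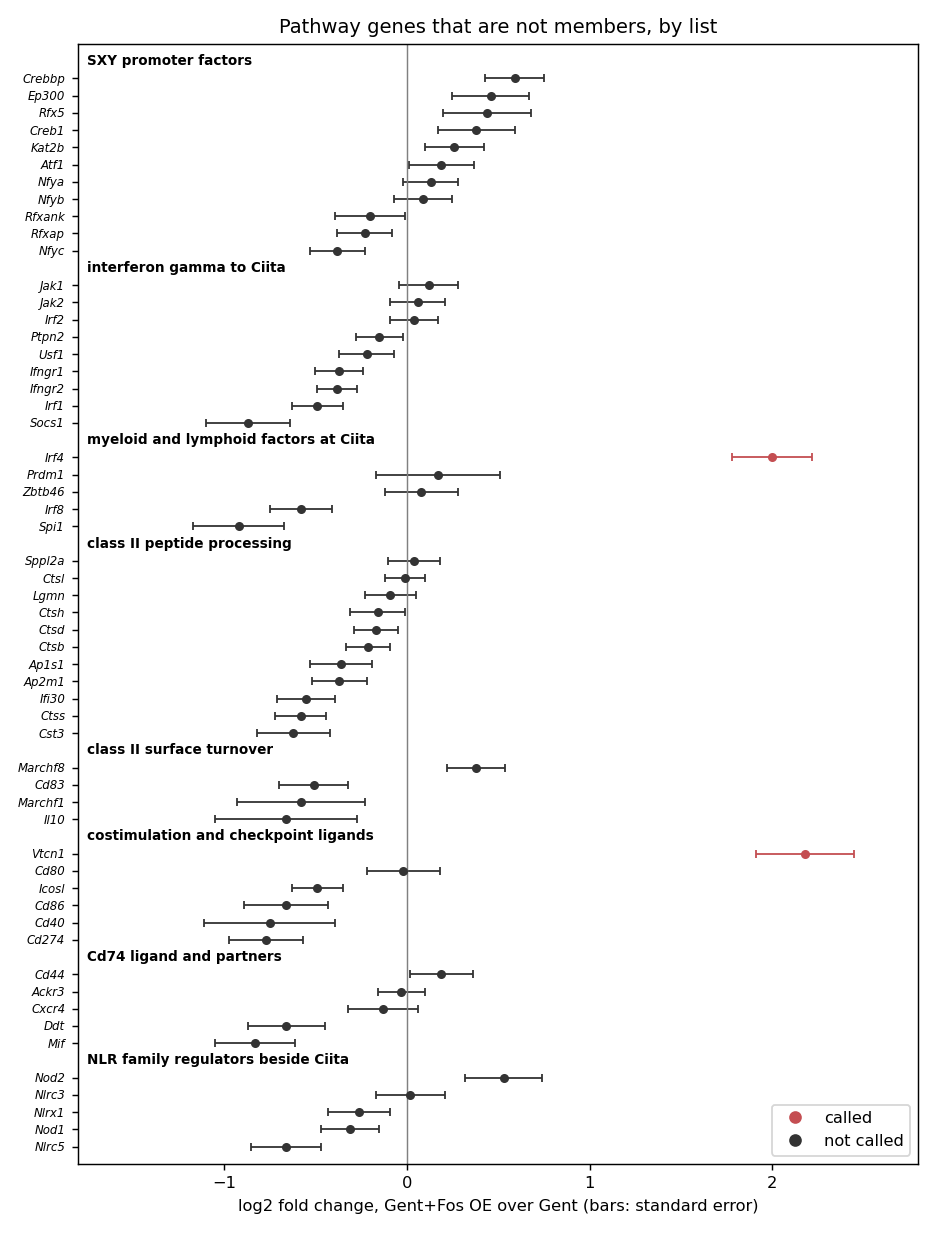
Log2 fold change (Gent+Fos OE over Gent, bars standard error) of 56 of the 57 tested pathway genes outside the 7 members, by list, with 1 gene not shown. Irf4 and Vtcn1 are called and stand at about 2, and most other genes lie below 0.

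Over the 7 libraries, the genes whose log2 CPM followed Ciita most closely among 14791 candidates were Sh2d6, Clca3a2 and Hspa12a, with Pearson r of 0.987, 0.983 and 0.982. For Cd74 they were Ifi47, Pno1 and Tgtp1, with 0.995, 0.991 and 0.991. The points share their 2 groups, and with group means taken out these fell to 0.787, 0.850 and 0.746 for Ciita and 0.699, 0.632 and 0.722 for Cd74. Among the members themselves, with group means taken out, r ran from -0.92 (Cd74 with H2-DMb1) to 0.71 (H2-Ab1 with H2-DMb1) over 7 libraries, so replicates that were high for one class II gene were not regularly high for the rest.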

How the data were processed

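RNA was measured in 7 libraries of pooled mouse utricle explants, 4 Gent+Fos OE and 3 Gent, grouped by their labels. The study's methods state 3 replicates per condition, and all 7 labelled libraries were used. Per the file headers, the deposited counts are whole reads per gene that the authors made with featureCounts 2.0.6 on mm10, with no strand setting and with each of the 2 mates of a fragment counted on its own. The submitters' processing notes also name Trim Galore 0.6.10, HISAT2 2.2.1 and DESeq2 1.34.0, whereas the study's methods name mm39. The fits were made in R 4.3.3 by edgeR 4.0.16 (filterByExpr, TMM, quasi-likelihood test, no covariate), with limma 3.58.1 and DESeq2 1.42.0 as alternatives, and in Python 3.11.15 with scipy 1.17.1. A call needed a Benjamini-Hochberg adjusted p under 0.01 over 17155 genes and an absolute log2 fold change over 0.25. Of the 17 alternative fits, 1 (halved counts) and a second form of the permutation test were added after seeing the data. Symbols for 31656 genes were matched by Ensembl ID, and promoters came from RefSeq on GRCm38.

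The 7 members and all gene lists were chosen with earlier results of these data known. Named genes were the members, Fos, the class II genes outside them, the RFX genes, called or most changed genes of each pathway list (up to 4, mean of at least 1 CPM), the genes beside Ciita, the 3 most like Ciita and Cd74, and markers at 0 or carrying a list. Fcgr1, Csf1r, Cd79b, Cr2, Ighm, Spi1, Irf8, Cd274, Icosl, Dct, Tyrp1, Otog and the genes beside Cd74 were named after their values were seen. Results of some genes under this rule are not reported here. Libraries of one group varied beyond read sampling, so precision comes from that spread. Their labels say "bio rep" without naming animals, so the spread may be partly technical. The fits were tested on simulated data, where DESeq2 made more false calls than edgeR or limma-voom but also recovered more of the changed genes. The simulated libraries held no trend with gene length, unlike these.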

Additional observations from a re-analysis of the deposited data

Results flagged for a closer look

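Of 35 genes examined among the 4 Gent+Fos OE libraries, 2 had a library far from the others, and chance alone flags about 1 in 20. H2-Ab1 was at 1.71 CPM in replicate 2 and at 1.24 to 1.32 in the other 3. Fos was at 166.98 CPM in replicate 3 and at 148.83 to 151.14 in the others.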

How the results depend on the processing

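The members kept their direction under all alternatives that could be fitted (H2-Aa had too few reads for at least 10 in every library). Calls of Ciita and Cd74 are only a description, since both were chosen with this comparison known. Ciita was called under 6 alternatives, but not with limma-voom, a gene length correction or any single library left out. The replicate block, without or with that correction, did not call it either. Cd74 was called under every alternative but the replicate block, and was at -1.52 with the block and length correction together. With the length correction alone, Ciita was at 2.03 and Cd74 at -1.61. Genes called higher and lower over all tested genes, 23 and 48, became 273 and 327 with DESeq2, 63 and 141 with no filter, 35 and 95 with the length correction, 114 and 205 at an adjusted p under 0.05, and 0 and 0 with the replicate block (17 and 31 with the length correction too), and ran from 2 to 45 and from 3 to 93 with a library left out. Pathway genes called higher, 2, became 1 with limma-voom, 0 with the replicate block and 0 to 2 with a library left out. Those called lower, 0, became 2 with DESeq2, 1 with no filter, the length correction or an adjusted p under 0.05, and 0 to 1 with a library left out. The exact permutation p of Fos, 0.0571, was 0.0286 on the absolute difference. With the replicate block, Fos was at 2.03 (adjusted p = 0.0296, edgeR). With a library left out, Rfxank ran from -0.33 to 0.04 (without Gent replicate 2) and Cxcr4 from -0.32 to 0.01 (without Gent replicate 1), and Cxcr4 was at 0.07 with the block and length correction. For 27 pathway genes, 445 of 459 values kept their direction and side of the limit. Replicate numbers did not pair the groups (correlations of 0.064, -0.038 and 0.032 between same-numbered libraries). The cause of these changes was not tested. H2-Aa, H2-Ab1 and H2-Eb1 rest on 4 to 99 reads a library, which limits their precision.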
